A study of Mus musculus with 46 samples.

Results

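The miR-200 and miR-183 families were followed through heart, liver and brain of mice during storage of the organs after death. Their 8 members, mmu-miR-200a-3p, mmu-miR-200b-3p, mmu-miR-200c-3p, mmu-miR-141-3p, mmu-miR-429-3p, mmu-miR-182-5p, mmu-miR-183-5p and mmu-miR-96-5p, were chosen by name from the 1881 mouse miRNAs of the microarray, and all 8 were found in the deposited expression table. The study asked how miRNA profiles change when organs are kept in the cold, at 4 °C, or in a room (RT, room temperature), with storage times of 0 h to 96 h. All tissue came from male C57BL6 mice of an Il1a knock-out strain, so every group carries the knock-out and no wild-type animal was measured. Each organ was cut into 8 pieces of similar size, and each piece was stored for 1 of the times, given 1 RNA integrity number (RIN, high for intact RNA) and hybridised to 1 array. The groups were heart at 4 °C (7 arrays used, RIN 8.1 to 8.8), heart at RT (8 arrays, RIN 2.2 to 9), liver at 4 °C (6 arrays, RIN 3.4 to 9.1), liver at RT (8 arrays, RIN 2.3 to 7.1), brain at 4 °C (8 arrays, RIN 7.3 to 8.7) and brain at RT (8 arrays, RIN 3.3 to 8.7). All pieces of an organ at a temperature came from 1 animal. The sample labels name no slide, and 1 slide was assumed for each such set of pieces. Where the slide is used as a block below, it stands for tissue and temperature together. Effects of animal, of any slide and of temperature are not separable inside a tissue. By the methods, organs kept at 1 temperature came from the same animal, so the tissues share animals and times. Arrays were run for 1 animal per organ and temperature, the part of the organ that a piece held is not given in the sources used here, and p-values therefore measure only the spread between pieces.

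The miR-200 family is known as an epithelial family. Its members target the repressors Zeb1 and Zeb2, keep E-cadherin on in epithelial cells, and are also known from olfactory neurons. The miR-183 family is made from a single primary transcript and is known for its high levels in sensory cells, such as photoreceptors, hair cells and olfactory neurons. In liver, the cells lining the bile ducts are epithelial cells of this kind. In a bulk piece of tissue, fewer cells of a type and less RNA per cell cannot be told apart.

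The mature sequences from RefSeq (GRCm38.p6) are shown because the families differ by the seed, bases 2 to 8 counted from the 5′ end, which pairs with target transcripts. The seed is in capitals. All 8 names matched an entry.
mmu-miR-200b-3p: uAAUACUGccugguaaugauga
mmu-miR-429-3p: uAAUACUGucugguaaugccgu
mmu-miR-200c-3p: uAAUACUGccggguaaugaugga
mmu-miR-200a-3p: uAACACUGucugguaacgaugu
mmu-miR-141-3p: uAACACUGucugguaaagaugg
mmu-miR-183-5p: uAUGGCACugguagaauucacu
mmu-miR-96-5p: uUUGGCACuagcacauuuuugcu
mmu-miR-182-5p: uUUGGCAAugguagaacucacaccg

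The miR-200 family held 2 seeds. The seed AAUACUG was shared by 3 members (miR-200b-3p, miR-429-3p and miR-200c-3p) and the seed AACACUG by 2 (miR-200a-3p and miR-141-3p), with the single seed difference U4C from miR-200b-3p to miR-200a-3p. Seed and gene cluster crossed each other. Mir200b, Mir200a and Mir429 lie together on the minus strand of chromosome 4 (chr4:156053905-156055750, 1846 bases), whereas Mir200c and Mir141 lie on the minus strand of chromosome 6 (chr6:124717914-124718390, 477 bases). The closest relatives were therefore on different chromosomes: miR-200a-3p and miR-141-3p were identical at 20 of 22 positions (differences C17A and U22G), as were miR-200b-3p and miR-200c-3p (U11G and A22G). The miR-183 family had 3 different seeds, and its genes Mir183, Mir96 and Mir182 span 3820 bases on the minus strand elsewhere on chromosome 6 (chr6:30165918-30169737). Each member was measured by 2 probes and 30 spots per array, and none of these spots was saturated. Hybridisation between such close relatives cannot be told apart from expression of each, so the members of 1 seed are not independent measurements.

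A call of detected by the scanner software was available for every miRNA and array. Between 268 and 798 miRNAs were detected per array, and the lowest deposited value of a detected miRNA was between 0.25 and 1.79 on the log2 scale, depending on the array. The liver arrays at RT from 6 h on, all with RIN of 2.8 or below, had from 525 to 726 detected miRNAs, compared with 310 at 0 h. Tissue markers matched the labels: the liver miRNA miR-122-5p reached 15.47 in liver, the cardiac miR-208a-3p was detected on all 15 heart arrays and on no other, and the neuronal miR-124-3p was at least 12.97 on every brain array.

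Members of both families were detected mainly in brain and liver, and rarely in heart. Of the 45 arrays, miR-200a-3p was detected on 29, miR-200b-3p on 24, miR-429-3p on 21, miR-96-5p on 19, miR-141-3p on 14, miR-183-5p on 5, miR-200c-3p on 4 and miR-182-5p on 2. The 6 members detected on at least 5 arrays were among the 815 miRNAs tested in what follows. miR-200c-3p and miR-182-5p were not, and are given by their values. A member could pass this filter through the tissue in which it was high, and miR-183-5p passed with no array to spare.

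**Figure D1:**
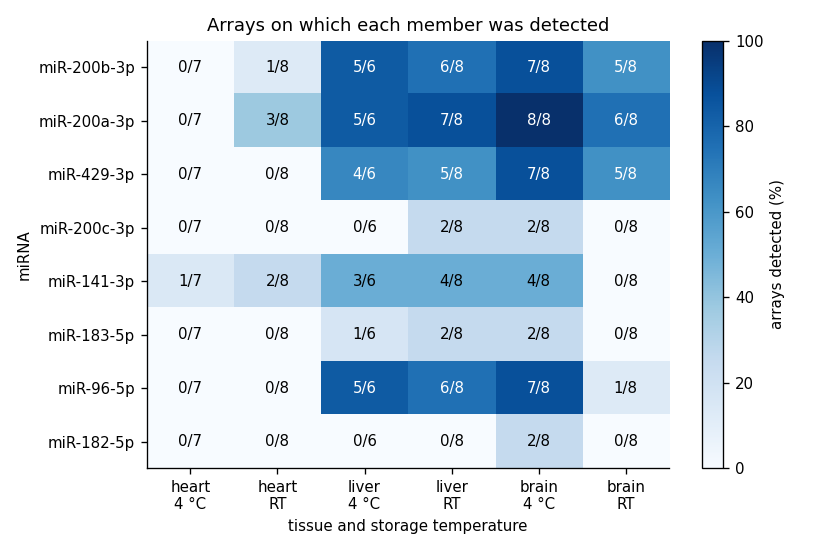
Number of arrays on which each member (rows) was detected, of the arrays in each combination of tissue and storage temperature (columns), with the share in percent as colour. miR-200a-3p was detected on 8 of 8 brain arrays at 4 °C, while 4 members were detected in brain at 4 °C and on no brain array at RT. For miR-200c-3p, miR-183-5p and miR-182-5p the brain detections came from the pieces of 3 h and 24 h alone.

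In heart, the values stayed near the limit of detection. miR-200a-3p ranged from -0.35 to 2.64 over the 15 arrays with a median of 0.93, and was detected on 3 RT arrays (6 h, 24 h and 48 h, at 2.64, 2.40 and 1.77). miR-200b-3p was detected on 1 heart array, RT at 6 h, at 2.41. miR-141-3p was detected on 3, namely 4 °C at 6 h (2.43) and RT at 6 h (2.24) and 48 h (1.80). The other 5 members were detected on no heart array.

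**Figure D2:**
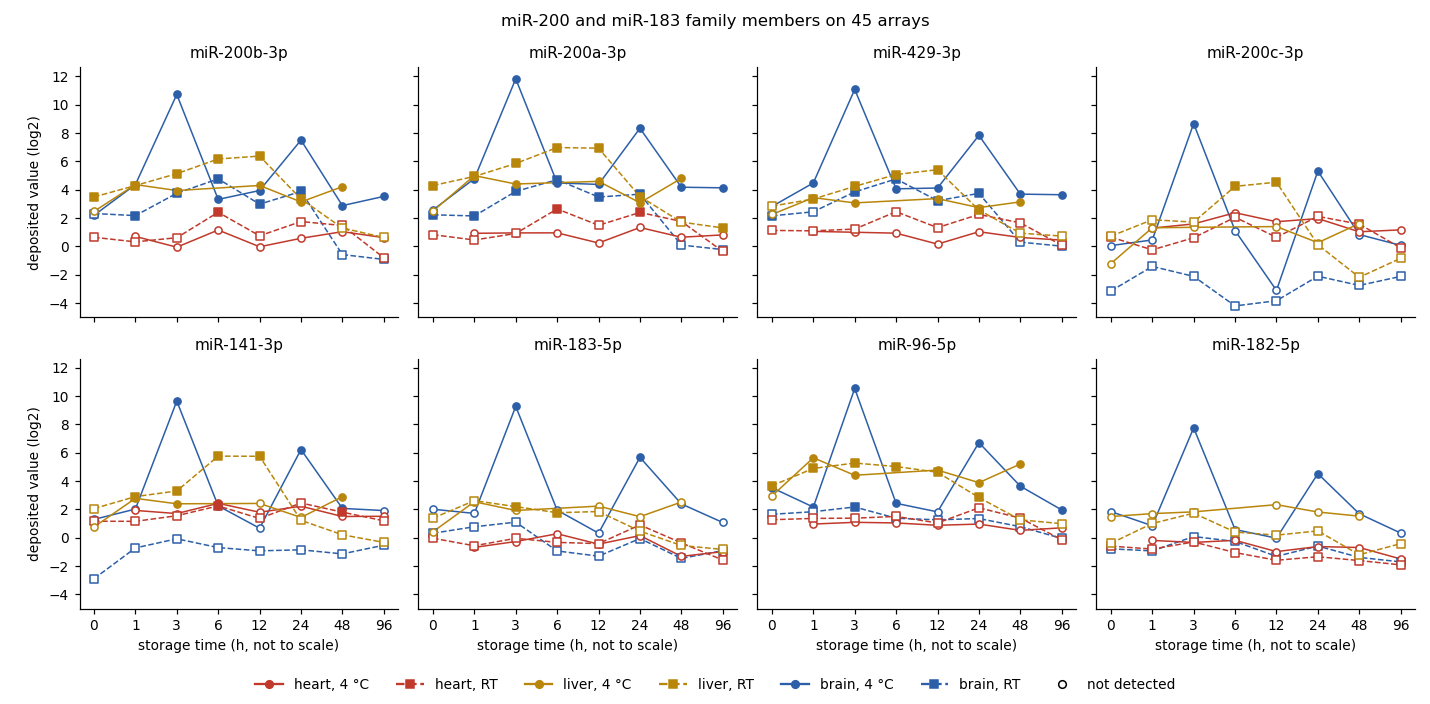
Deposited value (log2, vertical axis) of each member against storage time (horizontal axis, hours, not to scale) for heart (red), liver (gold) and brain (blue), at 4 °C (solid lines, circles) and RT (dashed lines, squares). Each point is 1 array of a separate piece, lines join pieces of 1 organ, and open symbols mark arrays on which the member was not detected. All 8 panels peak at the brain pieces of 3 h and 24 h at 4 °C.

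The highest values of all 8 members came from a single piece of brain, the one stored for 3 h at 4 °C, and the brain piece of 24 h at 4 °C held the second highest value for each of them. miR-200a-3p was at 2.58, 4.78, 11.83, 4.48, 4.38, 8.34, 4.18 and 4.14 in the brain pieces of 0, 1, 3, 6, 12, 24, 48 and 96 h at 4 °C. The pieces of 3 h and 24 h lay far above the other 6, and there was no order with time, since the pieces of 6 h and 12 h between them were among the low ones. miR-96-5p, of the other family, behaved alike, with 3.53, 2.16, 10.53, 2.43, 1.82, 6.71, 3.64 and 1.96 in the same order of times.

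The remaining members had the same 2 high pieces. miR-200b-3p reached 10.72 at 3 h and 7.50 at 24 h, against at most 4.77 on the other 14 brain arrays. miR-429-3p reached 11.08 and 7.84, against at most 4.76. miR-141-3p reached 9.64 and 6.22, against at most 2.24. The piece of 3 h was thus between 5.96 and 7.40 log2 units above every other brain array for the 6 tested members, and the piece of 24 h between 2.74 and 3.98. miR-183-5p reached 9.27 and 5.67, against at most 2.38. For the untested members the contrast was between detection and none: miR-200c-3p reached 8.67 and 5.32, and miR-182-5p reached 7.75 and 4.52, while neither was detected on any of the other 14 brain arrays.

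Among the miRNAs tested, the excess in both pieces was found for these members alone. Of the 815 tested miRNAs, 6 were above all 14 other brain arrays in both pieces, and these were the 6 members. No tested miRNA outside the families exceeded the other brain arrays by more than 0.81 at 3 h (the hepatic miR-122-5p, 4.86 against at most 4.06). At 24 h none did so by more than 0.003 (miR-7b-3p). This comparison was made after the 2 pieces had been seen, both are single arrays of 1 animal, and no test was applied. It left out miRNAs detected on fewer than 5 arrays, and so any detected in these 2 pieces alone. miR-200c-3p and miR-182-5p were among those left out, and miR-183-5p passed with 2 of its 5 detections from these pieces. Of the opposite arms, also untested, miR-200a-5p and miR-141-5p were above the other brain arrays in both pieces, at 24 h without detection. All 16 probes of the members were highest in the piece of 3 h and next highest in that of 24 h among the brain pieces at 4 °C. The scanner signal of miR-200a-3p was 4158 and 322 units in the 2 pieces, a ratio of 12.9. The ratio was between 10.7 (miR-200b-3p) and 16.3 (miR-96-5p) for all 8 members, so the members, whose genes lie at 3 places, differed between the 2 pieces in similar proportion. On 4 other scales of the arrays the 6 members were again the only tested miRNAs above the other brain arrays in both pieces. Their excess was at least 3.00 at 3 h and at least 0.82 at 24 h.

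**Figure D3:**
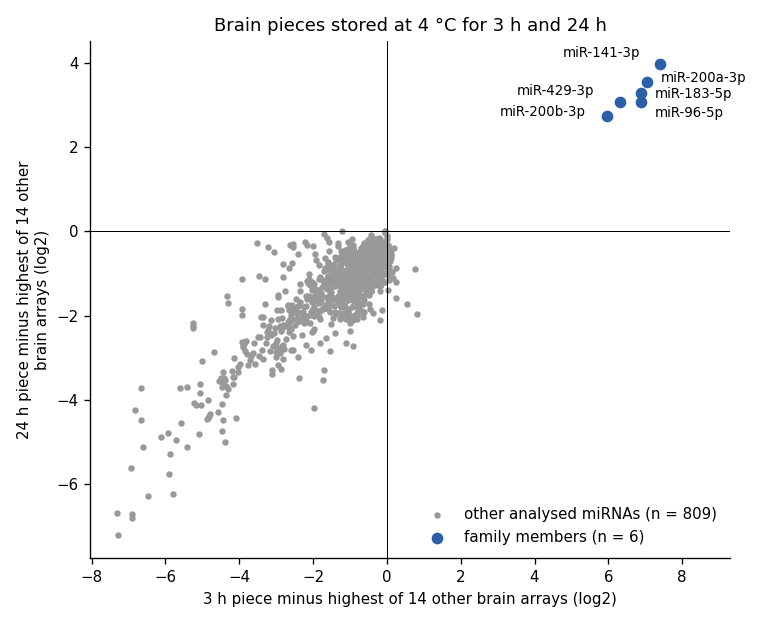
Each point is 1 of the 815 tested miRNAs. The axes give the deposited value (log2) in the brain piece of 3 h (horizontal) and of 24 h (vertical) at 4 °C, minus the highest value on the other 14 brain arrays. The 6 tested members (blue) lie alone in the upper right, at 5.96 to 7.40 and 2.74 to 3.98, and all others (grey) lie at or below 0.81 and 0.003.

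Other properties of the 2 pieces were as follows. Their RIN values were 8.4 and 8.5, and 574 and 550 miRNAs were detected, within the range of the brain arrays at 4 °C from 515 to 579. The summed signal of detected miRNAs was 504440 in the piece of 3 h, the highest of the brain arrays at 4 °C, and 334948 in that of 24 h, among the lower values. Of the 11 other miRNAs listed for epithelial, ciliated, sensory or pigmented cells, 9 were within the range of the other 14 brain arrays at 3 h and all 11 at 24 h. The exceptions at 3 h were miR-449a-5p of ciliated cells (3.32 against at most 2.56) and miR-194-5p (5.52 against at most 5.48). miR-204-5p, abundant in choroid plexus and pigment epithelium, was at 9.59 and 9.69 in the 2 pieces and between 7.66 and 10.99 in the others. Of 9 markers of liver, heart muscle, brain and blood, miR-122-5p and miR-486a-5p (4.63 against at most 4.60) were above the others at 3 h, and none was at 24 h. The blood miRNA miR-451a was at 10.55 and 9.54 in the 2 pieces and reached 11.17 in the others. The part of these miRNAs in the result was not tested.

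Among the other brain arrays, the 3 members of the chromosome 4 cluster were detected on most RT arrays up to 24 h and on neither later one. miR-200b-3p was missed at 0 h (2.32) and miR-429-3p at 1 h (2.45). miR-200a-3p was detected at 2.23, 2.15, 3.88, 4.71, 3.49 and 3.69 in the brain pieces of 0, 1, 3, 6, 12 and 24 h at RT, and was not detected at 48 h (0.10) and 96 h (-0.22). These last pieces had RIN of 5.5 and 3.3, against at least 7.3 before. miR-200b-3p and miR-429-3p were at -0.57 and 0.31 at 48 h and at -0.91 and 0.02 at 96 h, again without detection. At 4 °C the pieces of 48 h and 96 h still held miR-200a-3p at 4.18 and 4.14. miR-96-5p was detected on 7 of 8 brain arrays at 4 °C but on 1 of 8 at RT (3 h, at 2.17), where it lay between -0.05 and 2.17.

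In liver at RT, the miR-200 family was highest at 6 h and 12 h (the labels' time, which the methods give as 14 h in all groups) and low at 48 h and 96 h. miR-200a-3p was at 4.30, 4.94, 5.85, 6.98, 6.93, 3.52, 1.72 and 1.31 in the liver pieces of 0, 1, 3, 6, 12, 24, 48 and 96 h at RT. The 2 highest pieces had RIN of 2.8 and 2.7, and the lowest piece was that of 96 h with RIN 2.3. miR-141-3p followed the same course, with 2.05, 2.90, 3.30, 5.76, 5.75, 1.23, 0.21 and -0.33, and was detected from 1 h to 12 h only. miR-200c-3p was detected in liver in these 2 pieces alone, at 4.24 and 4.53, and was at most 1.88 in the other 12 liver arrays. miR-200b-3p reached 6.17 and 6.38, and miR-429-3p 5.08 and 5.41, each above all other liver arrays.

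The miR-183 family did not share this peak on the deposited scale. miR-96-5p was at 3.67, 4.89, 5.27, 5.02, 4.62, 2.84, 1.26 and 0.99 at the same times, and its highest liver value, 5.64, belonged to the piece of 1 h at 4 °C. miR-183-5p was at 1.76 and 1.85 at 6 h and 12 h, within the range of the other liver arrays. The pieces of 6 h and 12 h were singled out after their high miR-200 values had been seen, and no test was applied. That the miR-200 members are high in what follows is thus given by this choice. The pieces set against them include that of 3 h, where miR-96-5p was highest at RT. Taking the mean of the pieces of 6 h and 12 h minus that of 0 h, 1 h and 3 h, the median of all 815 tested miRNAs was 0.26. Relative to it, miR-141-3p was higher by 2.74, miR-200b-3p by 1.70, miR-200a-3p by 1.66 and miR-429-3p by 1.51, against -0.05 for miR-96-5p and -0.52 for miR-183-5p. The direction for the miR-183 family depended on the scale: without scaling between arrays all 6 were higher, from 0.76 (miR-183-5p) to 4.39 (miR-141-3p), with a median of 0.99 over all miRNAs, and with quantile normalisation miR-96-5p and miR-183-5p were at -0.95 each. The 4 miR-200 members were higher on every scale tried. High values in these liver pieces were not particular to the family. Of the 815 miRNAs, 60 were above all other liver arrays in both pieces, 4 of them members. By the smaller of the 2 excesses miR-141-3p ranked 1st with 2.45, followed by miR-5128 (1.60), miR-5113 and miR-669c-3p (1.29). The heart marker miR-1a-3p was also highest there, at 3.30 and 3.55 against at most 2.02, and its part in the result was not tested.

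**Figure D4:**
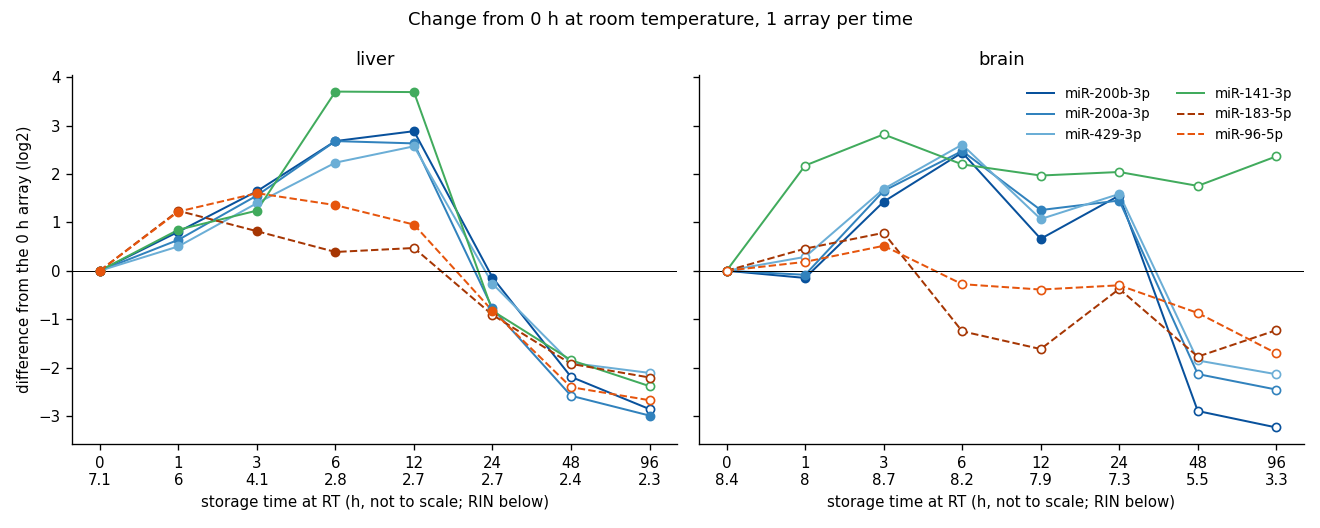
Difference from the 0 h array (log2, vertical axis) of the 6 tested members in liver (left) and brain (right) during storage at RT (horizontal axis, hours, not to scale, with the RIN of the piece beneath). Solid lines are miR-200 members, dashed lines miR-183 members, and open symbols mark arrays without detection; miR-141-3p was not detected on any brain array at RT. In liver at 6 h miR-141-3p was 3.70 above its value at 0 h, where it was not detected, compared with 1.36 for miR-96-5p.

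To compare the tissues, the 33 arrays with RIN above 6 were used (13 heart, 6 liver, 14 brain), with limma and the slide as a random block. In brain, 5 of the 6 tested members were called higher than in heart at a Benjamini-Hochberg adjusted p below 0.05, where 47.1% of all 815 miRNAs were called higher. The means of miR-200a-3p were 4.63 ± 2.56 in brain (SD, n = 14), 3.98 ± 0.97 in liver (n = 6) and 1.12 ± 0.70 in heart (n = 13). It was higher in brain than in heart by 3.49 ± 0.69 (SE, limma adjusted p = 4.07e-05) and higher in liver than in heart by 2.86 ± 0.87 (adjusted p = 0.00653). In liver, 4 of 6 members were called higher than in heart, against a background of 9.69%. These were miR-96-5p (3.07 ± 0.86, adjusted p = 0.00328), miR-200a-3p, miR-200b-3p (2.81 ± 0.79, adjusted p = 0.00361) and miR-429-3p (1.81 ± 0.78, adjusted p = 0.0497). With the arrays matched by animal and time as a replicate block, miR-429-3p was not called (1.56 ± 0.85, limma adjusted p = 0.133).

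Where a member was detected on no heart array, its difference is given as a lower limit. This limit is approximate, because the mean of the brighter tissue includes arrays without detection. By this limit miR-429-3p was at least 7.15-fold higher in brain and at least 2.58-fold higher in liver than in heart, and miR-96-5p at least 2.89-fold and 6.58-fold. miR-429-3p was detected on 12 of these 14 brain arrays and 3 of 6 liver arrays, and miR-96-5p on 8 of 14 and 5 of 6. Without the 2 high pieces the brain limits were 4.00-fold for miR-429-3p and 1.51-fold for miR-96-5p. For miR-183-5p, called in brain against heart (means 1.73 and -0.29, limma adjusted p = 0.0145), the limit was only 1.22-fold, and 12 of the 14 brain arrays did not detect it. Without the 2 that did, its brain mean of 0.78 was below the detection limit in heart (1.45), and no lower limit remained. No member was called different between brain and liver by limma (0 of 6, 0 at an unadjusted p below 0.05, background 72.5%). This count depended on the 2 high brain pieces. Without them, a choice made after seeing the data, miR-96-5p was lower in brain than in liver by -2.12 ± 0.34 (limma adjusted p = 1.54e-06) and miR-141-3p by -1.63 ± 0.53 (adjusted p = 0.00679). Without them miR-141-3p was also lower in brain than in heart (-1.43 ± 0.43, limma adjusted p = 0.00404), at values mostly without detection in both tissues, and the difference of miR-200a-3p between brain and heart was 2.60 ± 0.34. The liver difference of miR-183-5p from heart was then called too (1.95 ± 0.42, limma adjusted p = 2.69e-04). It was detected on only 1 of these 6 liver arrays and on 0 of the 13 heart arrays, and its limit was 1.16-fold. It also stayed among the tested miRNAs only through its detections in the 2 pieces left out. After normexp background correction with quantile normalisation, no member was called in brain against heart and 1 in liver against heart. The order of the miR-200a-3p means was brain, liver, heart, and the difference between brain and liver (0.63 ± 0.86) was smaller than its error. This order rested on the 2 high brain pieces, without which brain (3.72) lay below liver (3.98) and the difference was -0.26 ± 0.42.

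RNA integrity was related to the members in brain. With a slope for each tissue in limma, 5 of 6 members rose with RIN in brain, where 13.3% of all miRNAs were called with a positive slope. The slope was 1.11 ± 0.32 log2 units per RIN unit for miR-200a-3p (limma adjusted p = 0.00524), 1.14 ± 0.29 for miR-200b-3p, 1.02 ± 0.27 for miR-429-3p, 0.76 ± 0.29 for miR-183-5p and 0.73 ± 0.29 for miR-96-5p. Outside the brain pieces of 3 h and 24 h at 4 °C, miR-183-5p was detected on 0 of 14 brain arrays and miR-96-5p on 6. Their slopes therefore rest largely on values without detection and on these high pieces. With the slide as block 2 of the 5 calls held, miR-200b-3p (0.93 ± 0.33) and miR-429-3p (0.75 ± 0.29). Only 2 brain pieces had RIN of 6 or below, and among arrays with RIN above 6 no member was called by limma (0 at an unadjusted p below 0.05). In heart and liver no member was called (0 of 6 each, 0 at an unadjusted p below 0.05), where 48.5% and 70.4% of miRNAs were. Across the 3 tissues with the tissue as block, 0 of 6 were called by limma (2 at an unadjusted p below 0.05), where 81.1% of miRNAs were. Without the liver pieces of 6 h and 12 h at RT this count was 5, all with positive slopes. The slopes of brain and liver were not called different for any member (0 of 6, 3 at an unadjusted p below 0.05, background 2.7%). Without the 2 high brain pieces 3 were, namely miR-200a-3p (0.89 ± 0.26, limma adjusted p = 0.0477), miR-200b-3p and miR-429-3p. Between brain and heart (background 0.123%, 3 at an unadjusted p below 0.05) and between liver and heart (2.82%, 0 at an unadjusted p below 0.05) no member's slope was called different.

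The highest and the lowest miR-200 values of liver both lay among the pieces of low RIN. Between 8 liver pieces with RIN of 6 or below and 6 with RIN above 6, none of the 6 members was called by the exact Wilcoxon-Mann-Whitney test (0 at an unadjusted p below 0.05, and 0 by limma with or without the slide as block). In this comparison 27.7% of all miRNAs were called. miR-200a-3p was higher by 0.53 in the low-quality pieces (two-sided exact p = 0.491), and ranged there from 1.31 to 6.98, on both sides of the high-quality pieces.

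The members were lower after longer storage at RT. With the tissue as block, 5 of 6 fell with hours at RT, against 37.3% of all miRNAs called with a negative slope. Over 24 h, miR-200b-3p fell by 0.91 ± 0.19, miR-200a-3p by 0.84 ± 0.19, miR-429-3p by 0.72 ± 0.16, miR-96-5p by 0.62 ± 0.12 and miR-183-5p by 0.49 ± 0.12 (log2 ± SE, limma adjusted p between 8.4e-05 and 0.000759, n = 24 arrays). The sixth, miR-141-3p, had -0.35 ± 0.20. miR-96-5p and miR-183-5p were detected on no heart array. In brain at RT miR-96-5p was detected at 3 h alone, and miR-183-5p at no time. In liver at RT miR-183-5p was detected at 3 h and 6 h only. Most values behind the falls of these members were therefore without detection. The courses in liver at RT were not straight lines, with highest values between 1 h and 12 h, and without the 96 h arrays 2 members were called. Read per slide in the fit of all slides, a reading added after seeing the data, 5 of 6 fell in liver at RT (34.1% of all miRNAs) and 1 of 6, miR-200b-3p, in brain at RT (17.3%). In heart at RT 0 of 6 were called (0 at an unadjusted p below 0.05), at values mostly without detection.

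At 4 °C the fall with time was not called. By limma, 0 of 6 members were called with hours at 4 °C (0 at an unadjusted p below 0.05, background 12%). The time slopes at RT and 4 °C were also not called different for any member in heart (background 15.3%), liver (32.3%) or brain (1.47%), with 0 at an unadjusted p below 0.05 in each. Without the 2 high brain pieces, whose spread enters this fit, the slope of miR-96-5p in liver was more negative at RT than at 4 °C by -0.059 ± 0.018 log2 units per hour (limma adjusted p = 0.00859), as was that of miR-183-5p. The values of miR-183-5p in liver were mostly without detection, and it stayed tested only through the 2 pieces left out.

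The opposite arms of the 8 hairpins, normally the less stable strands, were almost absent. Of 8 arms, 4 were detected on at least 1 of the 45 arrays and none on 5, so none was tested. All 4 were detected in the brain piece of 3 h at 4 °C: miR-200b-5p at 4.61, miR-200a-5p at 4.17, miR-183-3p at 3.20 and miR-141-5p at 2.50. These were the highest values of each arm on any array. With or without detection, 7 of the 8 arms were above the other 14 brain arrays at 3 h. The piece of 24 h detected 1 of them, miR-200b-5p, at 1.40, within the range of those arrays (at most 2.26). Without detection, miR-200a-5p (1.53 against at most 1.47) and miR-141-5p (-1.03 against at most -1.99) were above them at 24 h. The other detections were miR-200b-5p and miR-200a-5p in liver at RT at 24 h, miR-183-3p in liver at RT at 96 h and miR-200b-5p in brain at RT at 48 h, all on arrays with RIN of 5.5 or below.

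Of the 11 other miRNAs listed for epithelial and sensory cells, 9 were tested; miR-205-5p of squamous epithelium was detected on no array, and miR-375-3p of endocrine cells on 3 brain arrays. In brain, 7 of the 9 were called higher than in heart (47.1% of all miRNAs) and 1 lower (22%). In liver, 4 were called higher than in heart (9.69%) and 3 lower (44.9%). The keratinocyte miRNA miR-203-3p was detected on all 45 arrays, with medians of 2.69 in heart, 5.81 in liver and 3.87 in brain, and miR-31-5p likewise, with 4.13, 6.38 and 5.41. miR-192-5p and miR-194-5p, of gut and liver epithelium, were higher in liver than in heart by 5.63 and 4.47. miR-34b-5p and miR-34c-5p, of ciliated cells, were higher in brain than in heart by 4.30 and 4.50. With hours at RT, 7 of the 9 fell, against 37.3% of all miRNAs. With RIN across the tissues 7 of the 9 were called, all with positive slopes, against 35.2% of all miRNAs called with a positive slope. The median slope was 0.18 per RIN unit for these 9 and 0.22 for the 6 members.

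In liver and brain, the members of a family varied together. The pairs share arrays and, within a seed, most of their sequence, so the correlations are given as a description. Over the 14 liver arrays, the 7 pairs within a family had Pearson's r between 0.96 and 0.99 (Spearman's rho from 0.89 to 1.00), and the 8 pairs between families between 0.69 and 0.86 (rho 0.71 to 0.86). Without the pieces of 6 h and 12 h at RT, the pairs between families reached 0.92 to 0.97. Over the 16 brain arrays, pairs within a family had r between 0.81 and 1.00 (rho 0.52 to 0.97). There miR-141-3p had a higher r with miR-183-5p (0.94) and miR-96-5p (0.93) than with any tested miR-200 member (at most 0.88). Pairs between families had r between 0.83 and 0.94, which dropped to between 0.38 and 0.73 without the 2 high pieces. Pairs within a family then ranged from 0.33 to 0.99. Over the 15 heart arrays, mostly without detection, r was between 0.49 and 0.93 within a family (rho 0.28 to 0.78) and between 0.45 and 0.84 between families (rho 0.33 to 0.88).

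The miRNAs outside the families with the most similar values over the 45 arrays were named for the most often detected member of each family. For miR-200a-3p they were miR-592-5p (r = 0.64, rho = 0.59), miR-33-5p (r = 0.64, rho = 0.69) and miR-31-5p (r = 0.64, rho = 0.77). For miR-96-5p they were miR-101b-3p (r = 0.68, rho = 0.71), miR-203-3p (r = 0.66, rho = 0.78) and miR-31-5p (r = 0.66, rho = 0.78). These values mix the differences between tissues with those within. With the tissue means subtracted, the most similar were miR-17-3p, miR-7a-5p and miR-224-5p for miR-200a-3p (r from 0.58 to 0.59) and miR-7a-5p, miR-7b-5p and miR-130a-3p for miR-96-5p (r from 0.61 to 0.63). None of these miRNAs was above the other brain arrays in both high pieces, without which r was 0.87 for miR-96-5p and miR-7a-5p.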

How the data were processed

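Total RNA including miRNA was isolated from each piece (miRNeasy, without DNase), labelled with cyanine 3 and hybridised to 1-colour Agilent SurePrint mouse miRNA arrays. The authors extracted each spot's intensity and its detection call with Agilent Feature Extraction, and deposited log2 values after variance-stabilising normalisation (VSN), which were used here. These keep the rank of the deposited intensity on each of 46 arrays (Spearman's rho of 1). As in the study, 1 heart array (4 °C, 0 h; no member detected) was left out of the 45; liver at 6 h and 96 h at 4 °C is not analysed here. Times are those of the labels, whose 12 h the methods give as 14 h. No other column of values was left unmapped. miRNAs detected on at least 5 arrays were tested with limma 3.58.1 in R 4.3.3 (slide as random block between tissues, correlation 0.020) or the exact Wilcoxon-Mann-Whitney test, with Benjamini-Hochberg adjustment over all 815. The number of arrays limits the precision, and scripts were tested on simulated data. Members and lists were chosen with earlier results of these data known. The named miRNAs are the 8 members, their opposite arms, a list of 11, markers and the 3 most similar miRNAs. Alternatives were other scalings (normexp used median signals), filters, blocks and array sets. Lower limits set the brighter group's mean against, per array of the dimmer group, the higher of the lowest detected value and the member's own. That mean includes arrays without detection.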

Additional observations from a re-analysis of the deposited data

Results flagged for a closer look

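Over the 48 combinations of member and group, 1 array stood apart, by a gap to the next array of 0.622 of its group's range; chance alone gives about 1 in 20. It was miR-141-3p in brain at RT, where the piece of 0 h was lowest at -2.89, against -1.14 for the next, and miR-141-3p was detected on no brain array at RT. The brain pieces of 3 h and 24 h at 4 °C were not marked in this way for any member. This rule sets the outermost array against the next one, so high pieces of the same group can hide each other. The missing mark therefore cannot show whether these pieces stood apart.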

How the results depend on the processing

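Over all alternatives, 165 counts of called members were within 1.5 times the reported count and 29 were not; of the estimates of called members 167 kept their call, 58 lost it and none changed sign. The counts that moved are given here, each of 6 tested members. Brain against heart (5 reported) gave 0 with normexp and quantile normalisation, 3 with Bonferroni adjustment and 3 with all 45 arrays. Liver against heart (4) gave 1 with normexp and 0 with Bonferroni. Brain against liver (0) gave 1 without scaling, 1 with 75th percentile scaling, 1 with quantile normalisation and 2 without the brain pieces of 3 h and 24 h at 4 °C. RIN across the tissues (0) gave 1 with 75th percentile scaling, 3 with quantile normalisation, 1 without a detection filter, 2 without these brain pieces and 5 without the liver pieces of 6 h and 12 h at RT. RIN in liver (0) gave 1 with quantile normalisation. RIN in brain (5) gave 3 without scaling, 3 with 75th percentile scaling, 3 with quantile normalisation, 0 with normexp, 0 with Bonferroni, 2 with the slide as block and 0 with RIN above 6. The RIN slope of brain minus liver (0) gave 2 without scaling, 1 with detection on at least 3 arrays and 3 without the brain pieces. Hours at RT (5) gave 3 without scaling, 1 with Bonferroni and 2 without the 96 h arrays. The difference of time slopes in liver (0) gave 2 without the brain pieces. The cause was not tested. The median of all miRNAs in brain against heart was 0.44 as deposited and -0.06 with quantile normalisation. The sample titles all carry the same replicate number, so it does not pair pieces across groups. Pairing the tissues by animal and time as a replicate block called 5 members in brain against heart, 3 in liver against heart and 0 in brain against liver (1 at an unadjusted p below 0.05, limma); the only call lost was miR-429-3p in liver against heart. This pairing and leaving out these brain or liver pieces were chosen after seeing the data. Members near the lowest detected value, above all miR-183-5p, miR-200c-3p and miR-182-5p, are limited by signal over background.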
